A study of Mus musculus with 7 samples.

Results

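A set of 10 protease and inhibitor genes was followed in lipid-laden microglia of the ischemic mouse brain: the matrix metalloproteinases Mmp2, Mmp8, Mmp9, Mmp12, Mmp14 and Mmp19, the tissue inhibitors Timp1 and Timp3, and the membrane sheddases Adam17 and Adam10. They were chosen by symbol as members of these protease and inhibitor families, and 10 of 10 members were found among the 50686 genes of the files. Matrix metalloproteinases are zinc-dependent enzymes that cut collagens, laminins, elastin and many signalling proteins, and most are secreted as inactive precursors. Tissue inhibitors of metalloproteinases bind the active site of these enzymes and of some ADAM proteases, while ADAM10 and ADAM17 cut the outer parts of membrane proteins such as TNF, Notch receptors, TREM2 and CX3CL1 from the cell surface. In the brain after stroke these proteases are known for their action on the basement membrane of vessels and on receptors of microglia.

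The microglia were sorted by flow cytometry for CD11b, CD45 and the neutral lipid dye Bodipy from the forebrain of C57BL/6 males 4 days after a transient occlusion of the middle cerebral artery. The Young group held 4 mice of 3 to 4 months (14C, 18C, 23C and 29C) and the Old group 3 mice of 21 to 22 months (2posI, 3posI and 4posI). All 7 mice were ischemic, age was the only condition that differed between the groups in the labels, and each library came from 1 mouse. The mouse codes end in C for every Young and in posI for every Old mouse, and the labels do not explain them. Whatever the codes stand for cannot be told apart from age. The sort kept the Bodipy-rich fraction of the cells, and neither uninjured mice nor Bodipy-negative cells are part of the comparison.

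The libraries held 36574083 to 53002386 expected counts, and the members took 0.0662% to 0.0795% of them. The 10 microglial marker genes summed to 20664 to 30800 CPM (expected counts scaled to a common library size with TMM factors) in young mice, and to 23997, 10615 and 22324 CPM in the old mice 2posI, 3posI and 4posI. Old mouse 3posI stood apart, with 8 of 10 monocyte and macrophage markers at their highest of the 7 libraries. Their sum was 3905 CPM there, against 111.5 to 507.0 CPM in the other libraries. Young mouse 23C held the highest sum of the 6 fibroblast markers, 270.5 CPM, against 6.34 to 60.9 CPM elsewhere. The members' results that rest on 3posI or 23C are given with and without that mouse, and those of the further genes that rest on 3posI with and without it. The nearest profiles of members are given over all 7 libraries only.

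The stretches printed here belong to 5 members with a start window whose levels set 3posI or the old mice apart, so that their start regions can be read beside the values. Adam17 and Adam10 also had a start window and such levels, but their stretches are not printed. Mmp8, Mmp14 and Timp1 were highest in 3posI, Mmp12 was lowest there, and Timp3 was lower in every old mouse. All are on the plus strand of GRCm38.p6 with starts from RefSeq, which had a start window for 7 of the 10 members, and a window for Mmp2, Mmp9 and Mmp19 was not used here. Capitals mark the letters TGANTCA (the AP-1 site), AGGAAG (an Ets site) and GGGCGG (the GC box), searched on both strands with matches that may overlap.
Mmp8, chr9:7558329-7558428: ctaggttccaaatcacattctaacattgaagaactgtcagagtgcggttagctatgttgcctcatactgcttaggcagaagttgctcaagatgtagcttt
Mmp12, chr9:7347274-7347373: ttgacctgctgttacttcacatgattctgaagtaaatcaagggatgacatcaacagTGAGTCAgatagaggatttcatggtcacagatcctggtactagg
Mmp14, chr14:54431498-54431597: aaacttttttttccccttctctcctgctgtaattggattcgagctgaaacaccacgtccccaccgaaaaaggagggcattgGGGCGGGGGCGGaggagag
Timp1, chrX:20870066-20870165: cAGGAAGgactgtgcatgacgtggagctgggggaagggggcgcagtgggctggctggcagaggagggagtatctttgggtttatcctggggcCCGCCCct
Timp3, chr10:86300272-86300371: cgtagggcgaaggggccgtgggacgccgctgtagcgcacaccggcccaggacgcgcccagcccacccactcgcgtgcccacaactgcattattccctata

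The stretches of Mmp8, Mmp12, Mmp14 and Timp1 end 1 base before a RefSeq start, and that of Timp3 ends 41 bases before it. Mmp12 had 2 such starts, and the stretch belongs to the second, which lies inside the gene as GENCODE annotates it. Of the members' 8 windows of 250 bases before to 50 after a start, only this one held TGANTCA, at position -44. TGANTCA stood in 7.81% of 32851 RefSeq start windows of the same length. AGGAAG stood in every member window but this one and in 35.4% of all windows, and GGGCGG in the windows of Mmp14, Timp1, Timp3, Adam17 and Adam10 and in 35.7% of all windows. A match of letters is a description of the sequence and not a site of binding.

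On the per-length scale of TPM, which divides counts by transcript length, the sheddases led the group. Adam10 had the highest mean over the 7 libraries, 107.3 TPM, followed by Adam17 at 68.0 TPM and Mmp14 at 44.4 TPM. Mmp12 averaged 40.6 TPM and Mmp2, a gelatinase that cuts basement membrane collagen, 22.5 TPM. The other 5 members averaged under 10 TPM, from 8.62 TPM for Mmp8 to 2.21 TPM for Mmp9. The ranges of neighbours in this order overlapped in every case, although Adam10 lay above Adam17 in each of the 7 libraries. The 10 members together summed to 293.3 to 326.9 TPM in young mice and to 292.1, 380.2 and 278.2 TPM in 2posI, 3posI and 4posI. Adam10 and Adam17 made up 56.3% to 70.6% of this sum in young mice, and 50.7%, 33.4% and 54.1% of it in those old mice. In 3posI the share of Mmp14 was 29.0% and that of Timp1 11.0%, against means of 11.8% and 0.86% in young mice.

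**Figure D1:**
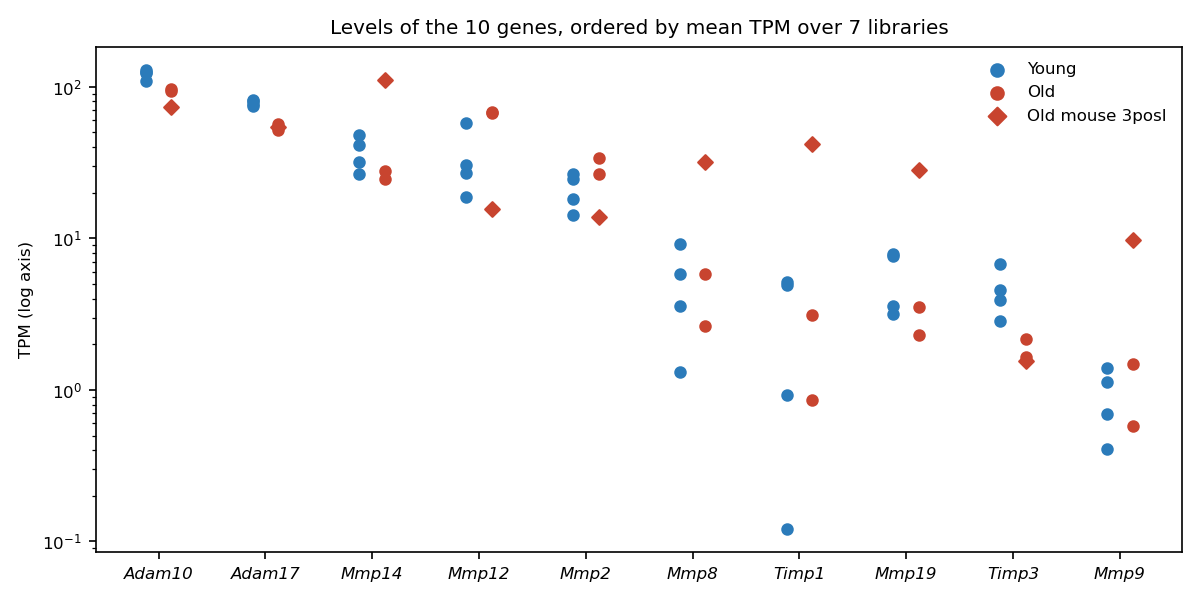
TPM of the 10 genes (log axis), ordered by the mean over 7 libraries, with blue points for the 4 Young and red for the 3 Old libraries. Adam10 and Adam17 lay lower in all old libraries, and the diamond of old mouse 3posI was the highest point of Mmp14, Mmp8, Timp1, Mmp19 and Mmp9.

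The comparison of Old with Young asked whether age changed the transcripts of these proteases and inhibitors in microglia after ischemia. All 10 members passed the filter on low counts, and 9 were tested among 17559 autosomal genes. Timp1, on chromosome X, was tested among 18173 genes of all chromosomes. By the quasi-likelihood test of edgeR, 0 of 10 members passed a Benjamini-Hochberg adjusted p of 0.05, where 0.803% of autosomal genes did so and 0.754% of genes of all chromosomes. At an unadjusted p under 0.05 there were 2 members, Timp3 and Mmp9, beside 18.9% of autosomal genes. DESeq2 called 1 member, Timp3, where it called 8.01% of genes, and limma-voom called 0. Mmp19 got no p-value from DESeq2 and was not tested by it. By limma on log2(TPM + 1), 0 of 10 members passed, against 0.604% of genes. The fitted log2 fold change was above 0 for 7 members and below 0 for 3, with a median of 0.71 beside -0.01 over all genes tested. Without 3posI it was above 0 for 3 members and below 0 for 7, with a median of -0.19.

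**Figure D2:**
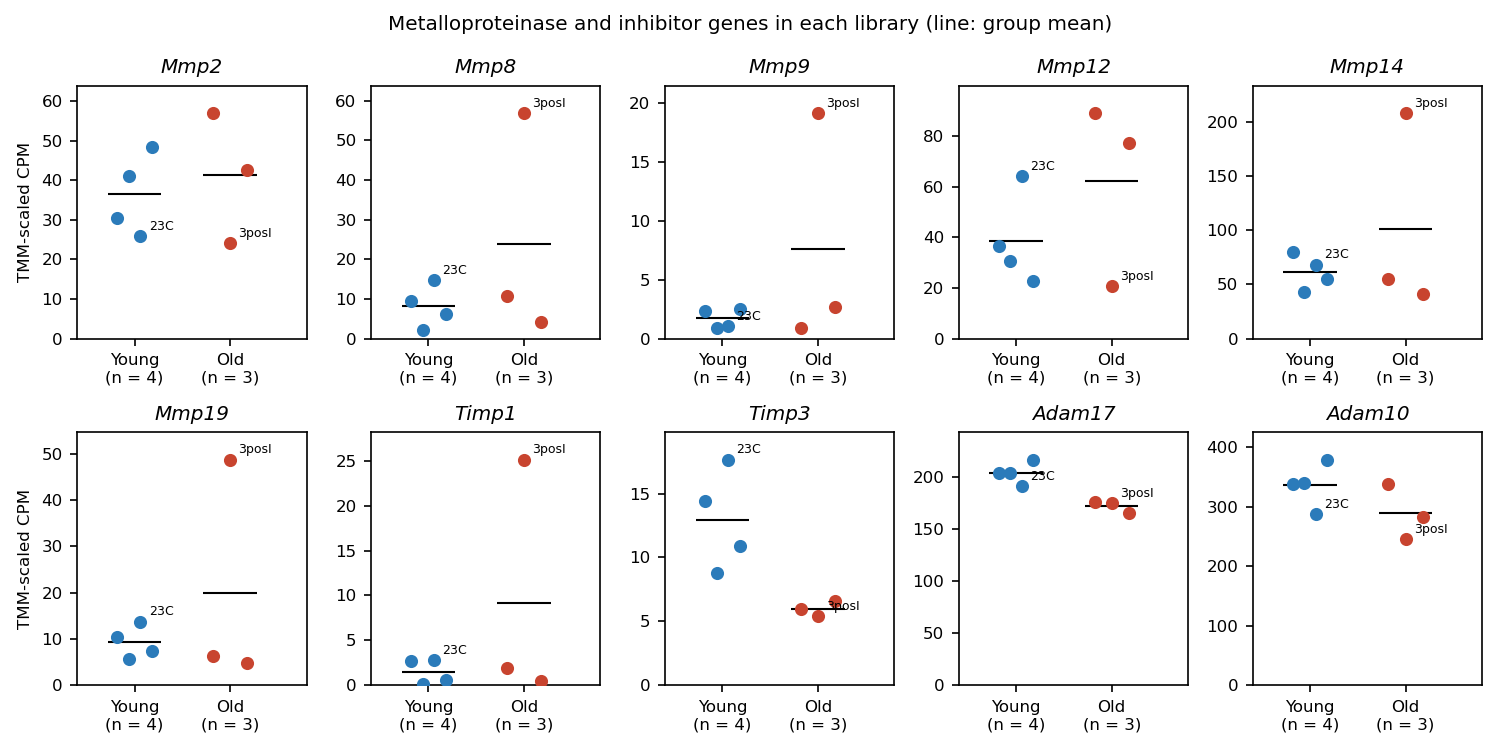
TMM-scaled CPM of each gene in each library, with lines at the group means and the mice 23C and 3posI named. Timp3 and Adam17 were lower in all 3 old than in all 4 young libraries, and 3posI alone was far above the others for Mmp8, Mmp9, Mmp14, Mmp19 and Timp1.

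Among the secreted metalloproteinases, Mmp8, the neutrophil collagenase, lies on chr9:7558456-7568485. It had 9.39, 2.06, 14.7 and 6.20 CPM in the young mice 14C, 18C, 23C and 29C, and 10.7, 56.9 and 4.15 CPM in the old mice 2posI, 3posI and 4posI. The level in 3posI was 3.88 times that of the next highest library, 23C, and the other old mice lay within the young range. The log2 fold change of Old over Young was 1.56 ± 0.85 (SE, edgeR adjusted p = 0.358), and -0.12 without 3posI (edgeR adjusted p = 0.947).

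Mmp9, a gelatinase known for opening the blood-brain barrier, lies on chr2:164940780-164955850 and was the least abundant member. It had 2.35, 0.85, 1.08 and 2.51 CPM in young mice and 0.90, 19.1 and 2.65 CPM in old mice. All libraries but 3posI lay under 3 CPM. Old over Young gave a log2 fold change of 2.15 ± 0.89 (SE, edgeR adjusted p = 0.239), and 0.07 without 3posI (edgeR adjusted p = 0.964).

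Mmp19, which cuts basement membrane proteins, lies on chr10:128790910-128800824. It had 10.3, 5.72, 13.7 and 7.38 CPM in young mice and 6.25, 48.7 and 4.74 CPM in old mice. Again 3posI was the highest library, 3.56 times 23C, and 4posI was the lowest. The log2 fold change of 1.10 ± 0.74 (SE, edgeR adjusted p = 0.449) was -0.75 without 3posI (edgeR adjusted p = 0.308). Mmp19 overlaps Tmem198b on the other strand, the library does not mark strand, and RSEM gave Mmp19 no whole count in any library, so that reads of these genes cannot be told apart where they overlap. Tmem198b had 12.8 to 22.5 CPM and was not raised in 3posI, at 14.1 CPM.

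Mmp14, the membrane-bound metalloproteinase that activates the precursor of MMP2, lies on chr14:54431612-54445364. It had 79.8, 42.6, 68.1 and 55.2 CPM in young mice and 54.7, 208.0 and 41.1 CPM in old mice. The level in 3posI was 2.61 times that of the next library, 14C, and 4posI was the lowest of all 7. The log2 fold change of 0.72 ± 0.51 (SE, edgeR adjusted p = 0.475) was -0.36 without 3posI (edgeR adjusted p = 0.489). Its substrate Mmp2, on chr8:92827291-92853420, had 30.6, 41.2, 26.0 and 48.3 CPM in young mice and 57.0, 24.0 and 42.7 CPM in old mice. Mmp2 was lowest in 3posI, where Mmp14 was highest, and its groups overlapped. Its log2 fold change was 0.18 ± 0.31 (SE, edgeR adjusted p = 0.791), and -0.13 without 2posI.

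Mmp12, the macrophage elastase, lies on chr9:7344381-7369499. It had 36.5, 30.7, 64.2 and 22.9 CPM in the young mice and 89.1, 20.6 and 77.4 CPM in the old mice. The old mice 2posI and 4posI were above every young mouse, and 3posI was below every young mouse. With all libraries the log2 fold change was 0.69 ± 0.49 (SE, edgeR adjusted p = 0.475). It was 1.11 ± 0.34 without 3posI (SE, edgeR adjusted p = 0.155) and 1.05 ± 0.48 without 23C (SE, edgeR adjusted p = 0.298). Without both 3posI and 23C, a choice made after the values were seen, it was 1.47 (edgeR adjusted p = 0.0287), in a fit that called 0.998% of 17038 genes and left 3 young and 2 old mice. For Mmp12 these were the lowest Old and the highest Young library, so this p-value is no evidence of a difference.

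Of the inhibitors, Timp1, which is induced by inflammation and inhibits most metalloproteinases, lies on chrX:20870166-20874735. It had 2.64, 0.064, 2.78 and 0.55 CPM in young mice and 1.89, 25.1 and 0.45 CPM in old mice. These levels rested on 3 expected counts in 18C and on 1036 in 3posI, whose level was 9.06 times that of the next library. Its log2 fold change was 2.60 ± 1.33 (SE, edgeR adjusted p = 0.333), and -0.38 without 3posI (edgeR adjusted p = 0.898).

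Timp3, the inhibitor that is bound to the matrix and acts on ADAM17 as well as on metalloproteinases, lies on chr10:86300372-86349506. It had 14.4, 8.78, 17.7 and 10.9 CPM in young mice and 5.94, 5.41 and 6.55 CPM in old mice. All 3 old libraries were below all 4 young ones, as for 8.99% of the 18173 genes. The means were 12.9 ± 3.92 CPM (SD, n = 4) and 5.97 ± 0.57 CPM (SD, n = 3), 2.17-fold apart. Old over Young gave a log2 fold change of -1.12 ± 0.25 (SE), with an unadjusted p of 0.00184 and an adjusted p of 0.0808 by edgeR. DESeq2 gave -1.11 with an adjusted p of 0.00213, and limma-voom -1.07 with an adjusted p of 0.117. Leaving out single libraries gave log2 fold changes from -1.26 to -0.93. In TPM the values were 4.53, 2.85, 6.74 and 3.90 in young mice and 1.64, 1.55 and 2.17 in old mice, again without overlap. The log2 fold change on the log2(TPM + 1) scale was -0.94 (limma adjusted p = 0.108).

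As a sum, markers of endothelial cells were lower in the same old libraries as Timp3. The 7 endothelial markers summed to 74.3 to 139 CPM in young mice and to 51.6 to 67.2 CPM in old mice, also without overlap. The fitted level was lower in Old for 6 of 6 tested, but 1 was higher without 3posI. The groups of Cldn5, Flt1 and Cdh5 overlapped. Flt1 had a log2 fold change of -0.145 (edgeR adjusted p = 0.756) and Cdh5 of -0.24 (edgeR adjusted p = 0.8). Slco1a4, a transporter of brain endothelium, fell by 1.66 on the log2 scale (edgeR adjusted p = 0.028). The 6 fibroblast markers had lower fitted levels in Old, but none passed edgeR's adjusted threshold (4 had an unadjusted p under 0.05 and DESeq2 called 1, Lum). Their sums overlapped, at 30.7 to 270.5 CPM in young mice and 6.34 to 38.4 CPM in old mice. The mural cells of vessels did not follow this direction: 5 of 6 mural markers had a higher fitted level in Old, with a median log2 fold change of 0.46, and their sum was 7.53 to 34.0 CPM in young and 11.6 to 37.0 CPM in old mice. The part of these cells in the Timp3 levels was not tested. In such bulk libraries fewer cells of a type and less RNA per cell cannot be told apart.

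**Figure D3:**
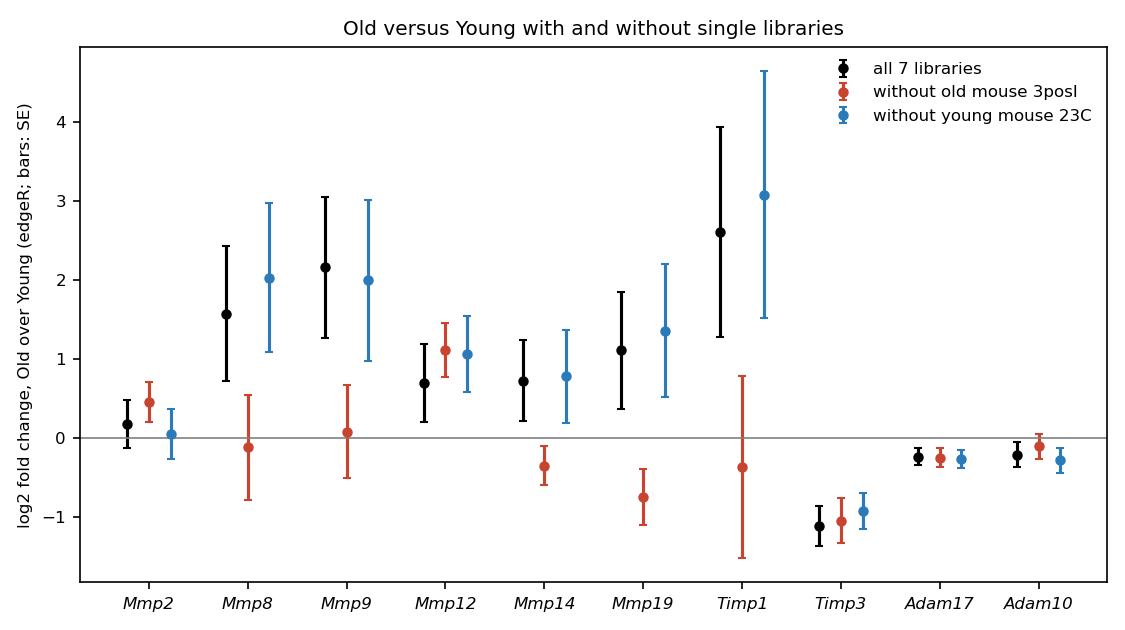
Log2 fold change of Old over Young for each gene by edgeR, with bars for the SE, for all 7 libraries, without old mouse 3posI and without young mouse 23C. Without 3posI the values of Mmp8, Mmp14, Mmp19 and Timp1 were below 0 and that of Mmp9 was 0.07, while Timp3 stayed between -1.12 and -0.93 in the 3 fits.

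Adam17, the TNF-converting enzyme, lies on the minus strand of chr12:21323509-21373632. It had 203.3, 203.5, 191.4 and 216.6 CPM in young mice and 176.3, 174.8 and 165.0 CPM in old mice. The groups did not overlap, as for 8.99% of the 18173 genes with Old below Young. Their means of 203.7 ± 10.3 CPM (SD, n = 4) and 172.0 ± 6.15 CPM (SD, n = 3) were 1.18-fold apart. In CPM the log2 fold change was -0.24 ± 0.11 (SE, edgeR adjusted p = 0.275). In TPM the young mice had 80.1, 81.2, 74.8 and 77.1 and the old mice 52.1, 53.9 and 57.1. That difference, -0.52 ± 0.09 (SE) on the log2(TPM + 1) scale, was 1.43-fold and had a limma adjusted p of 0.0568.

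Adam10, the main sheddase of Notch receptors and of the amyloid precursor protein, lies on chr9:70678997-70780229. It had 338.4, 340.1, 287.0 and 379.3 CPM in young mice and 338.5, 245.9 and 282.4 CPM in old mice, and the groups overlapped. In CPM the log2 fold change was -0.22 ± 0.16 (SE, edgeR adjusted p = 0.485). In TPM the groups did not overlap, at 123.9, 126.0, 109.3 and 129.0 in young mice and 96.2, 73.0 and 93.4 in old mice. The log2(TPM + 1) difference was -0.48 ± 0.13 (SE, limma adjusted p = 0.11). Lack of overlap in TPM with Old below Young was found for 12.4% of 14560 genes.

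The larger differences in TPM went with the effective length, by which RSEM divides the counts of a gene and which follows the estimated mix of its transcripts. For Adam17 it was 3725 to 3862 bases in young and 4330 to 4369 bases in old mice. For Adam10 it was 3902 to 4090 bases in young and 4502 to 4541 bases in old mice. Old lay above Young without overlap for 19.8% of the 1534 genes with at least 100 CPM and for 8.69% of all genes. Mmp14 did the same by less, with 2386 to 2446 and 2498 to 2539 bases, and Mmp2 the reverse, with 2454 to 2718 and 2181 to 2411 bases, as 4.19% of all genes did. With the effective lengths as an offset in edgeR, Adam17 had a log2 fold change of -0.42 (adjusted p = 0.112) and Adam10 of -0.38 (adjusted p = 0.235). Iah1 overlaps the 3′ end of Adam17 on the other strand, had 19.3 to 22.5 CPM in young and 27.4 to 33.2 CPM in old mice (edgeR adjusted p = 0.0951). Adam17 had no whole count in any library, and without strand, reads of these genes cannot be told apart where they overlap.

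**Figure D4:**
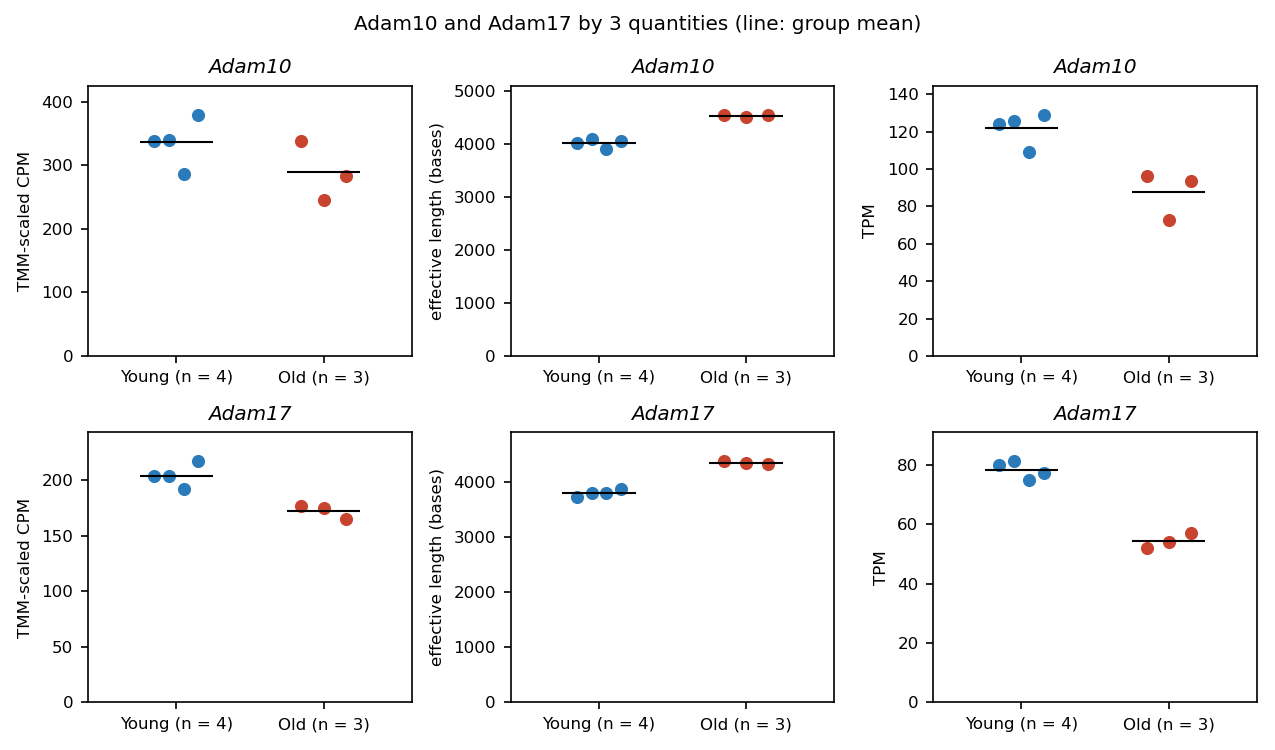
Adam10 (top) and Adam17 (bottom) by TMM-scaled CPM, RSEM effective length in bases and TPM, for 4 Young and 3 Old libraries with lines at the group means. The old libraries lay above the young ones in effective length and below them in TPM for both genes, and below them in CPM for Adam17 only.

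Of the 10 members, 5 were highest in 3posI in CPM, namely Mmp8, Mmp9, Mmp14, Mmp19 and Timp1, where 21.4% of all genes were highest in that library. Another 4 were lowest there, namely Mmp2, Mmp12, Timp3 and Adam10, where 20.2% of all genes were. Of the 10 monocyte and macrophage markers 8 were highest in the same library, and their median log2 fold change was 2.63 with 3posI and 0.59 without it. Chil3, a lectin of inflammatory macrophages, had 1355 CPM in 3posI and 7.38 to 65.5 CPM elsewhere. Arg1 had 1090 CPM and 0.55 to 66.6 CPM, and Ccr2, the receptor of inflammatory monocytes, 219.3 CPM and 1.96 to 18.4 CPM. Of these 10 markers, 0 passed edgeR's test between the ages, although 5 had an unadjusted p under 0.05 and DESeq2 called Ly6c2 and Plac8. Ccr2 and Chil3 got no adjusted p from DESeq2. The 6 dendritic cell markers summed to 57.1 CPM in 3posI, to 12.4 and 11.2 CPM in the other old mice and to 4.16 to 7.51 CPM in young mice. The 6 T cell markers summed to 1.27 to 3.84 CPM in old mice, again highest in 3posI, and to 0.22 to 0.61 CPM in young mice. Of the 6 dendritic cell markers, 4 had a higher and 2 a lower fitted level in Old. The lower ones were Zbtb46 (log2 fold change -0.81, edgeR adjusted p = 0.261) and Xcr1 (-0.48, edgeR adjusted p = 0.53). Ccr7 gave 42.5 CPM of the dendritic sum in 3posI. The 11 neutrophil markers were mixed. Their sum was 264.6 CPM in 3posI and 164.1 to 427.0 CPM in young mice, but Csf3r, which microglia also express, gave 162.0 CPM of it and was at its lowest there. Of the 11 markers, 2 were highest in 3posI: Cxcr2 with 7.55 CPM there and 0.15 to 0.85 CPM elsewhere, and S100a9 with 25.4 CPM. S100a8 had 62.7 CPM there and 71.2 CPM in 29C. Ngp had 1.70 CPM in 3posI, 16.5 CPM in 29C and 12.5 CPM in 4posI. In the same order Ltf had 2.31, 16.9 and 6.57 CPM and Camp 0.70, 4.78 and 4.37 CPM. Retnlg had 2.18 CPM in 3posI and 4.38 CPM in 29C. Ly6g, which defines neutrophils, had at most 0.28 CPM in any library, and Elane and Mpo at most 0.082 CPM. The part of these cell types in the levels of the 5 members was not tested.

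**Figure D5:**
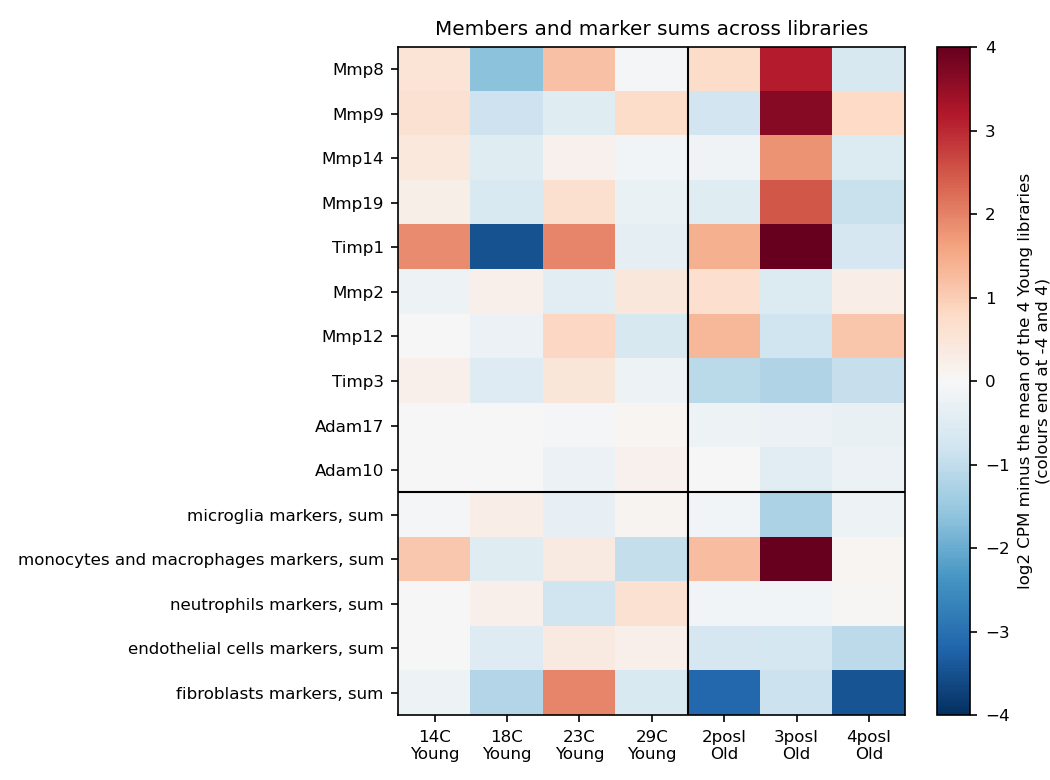
Log2 CPM minus the mean of the 4 Young libraries for the 10 genes and for summed marker lists in each library, with red above and blue below that mean. In 3posI the top 5 genes and the monocyte and macrophage sum (3905 CPM) were high and the microglial sum (10615 CPM) was low, and Timp3 and the endothelial sum were low in all 3 old libraries.

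For members with a mean of at least 10 CPM, the most similar genes were those with the smallest root mean square difference in log2 CPM, centred on each gene's own mean over the 7 libraries, among 8262 genes. For Mmp14 they were Crem (0.088), Plscr1 (0.10) and Gclm (0.17), and for Mmp19 Thbd (0.22), Dmxl2 (0.29) and Hpse (0.30), the last of which encodes heparanase, an enzyme that cuts heparan sulfate of the matrix. For Mmp8 they were Ecm1 (0.24), Tlr8 (0.32) and Apoc2 (0.37). All of these neighbours of Mmp14, Mmp19 and Mmp8 were highest in 3posI, as the members were. Crem had 66.9 CPM there and 14.1 to 26.2 CPM elsewhere, and Ecm1 1385 CPM and 45.2 to 226 CPM. The profiles were not compared without that library. For Mmp2 they were Ak1 (0.10), Zcwpw1 (0.11) and Mzt2 (0.12). Mmp12 had no gene as close, its nearest being Pabpc4 (0.49), Ccnd1 (0.49) and Cmtm4 (0.53) where its own profile had a root mean square of 0.79. Adam17 was nearest to Rbbp4 (0.040), Tm9sf2 (0.045) and Mon1b (0.046), and Adam10 to Usp8 (0.025), Gm5617 (0.049) and Arfgap2 (0.057). The sheddases' own profiles had root mean squares of only 0.13 and 0.20, which bounds how far a flat gene can differ from them.

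Around the members, 125 further genes in 10 lists cover related proteases, inhibitors, partners and substrates, and 107 of them were tested. By edgeR's test 0 passed the adjusted threshold, 28 had an unadjusted p under 0.05, beside 18.9% of all autosomal genes, and the median log2 fold change of the 107 was -0.36. DESeq2 called 8 of them, where it called 8.01% of all genes, and each had a lower level in Old: Adam33, Adamts1, Adamts10, Fosb, Icam1, Mmp11, Nid2 and Tspan14. It gave no adjusted p for some genes with a higher fitted level in Old, Il1r2 and S100a10 among them. limma-voom called 0.

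Of 12 other matrix metalloproteinases tested, 4 had a fitted level above and 8 below that of Young, with a median log2 fold change of -0.40. The list summed to 9.29 to 23.3 CPM in young and 8.56 to 21.9 CPM in old mice, a small amount beside Mmp14 alone. Mmp11 (stromelysin-3) had 1.43 to 2.85 CPM in young and 0.66 to 1.05 CPM in old mice (edgeR adjusted p = 0.164). Among the 8 other inhibitors tested, 3 had a higher and 5 a lower fitted level in Old, with a median of -0.19. Reck, a membrane-anchored inhibitor of metalloproteinases, had 1.58 to 1.75 CPM in young and 0.56 to 1.05 CPM in old mice (edgeR adjusted p = 0.199). Serpine2, an inhibitor of plasminogen activators and thrombin, was far more abundant, at 1051 to 1761 CPM in young mice and 1178, 342 and 1174 CPM in old mice, with 3posI lowest. Its log2 fold change was -0.63 with 3posI (edgeR adjusted p = 0.425) and -0.24 without it.

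The ADAMTS proteases, which cut proteoglycans and procollagens, had the lowest median of the 10 lists, -1.25 over 12 tested genes, of which 10 had a lower fitted level in Old. Adamts10 had 21.9, 21.8, 25.8 and 18.2 CPM in young and 7.55, 12.3 and 12.3 CPM in old mice. Its groups did not overlap, as for 8.99% of the 18173 genes with Old below Young. The log2 fold change of Adamts10 was -1.03 ± 0.21 (SE, edgeR adjusted p = 0.0655). Adamts1 had 142 to 285 CPM in young and 52.3, 41.0 and 152.6 CPM in old mice (edgeR adjusted p = 0.163). Of 9 other ADAM proteases tested, 4 had a higher and 5 a lower fitted level in Old, with a median of -0.26. Adam33 had 8.42 to 17.7 CPM in young and 3.08 to 4.83 CPM in old mice, a log2 fold change of -1.56 ± 0.30 (SE, edgeR adjusted p = 0.0579). Adam22 went the other way, with 1.08 to 2.72 CPM in young and 2.33 to 5.003 CPM in old mice (log2 fold change 0.96, edgeR adjusted p = 0.218). Adam15 had 281 to 406 CPM in young and 247 to 314 CPM in old mice (log2 fold change -0.43, edgeR adjusted p = 0.225).

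The carriers and activators of the sheddases summed to 401.0 to 445.3 CPM in young mice and 323.2 to 396.3 CPM in old mice, and 9 of 12 tested genes had a lower fitted level in Old, with a median of -0.34. Tspan14, a tetraspanin that carries ADAM10 to the cell surface, had 149.1 to 190.3 CPM in young and 108.3 to 129.3 CPM in old mice (log2 fold change -0.48, edgeR adjusted p = 0.128). Frmd8, which stabilizes the iRhom complex of ADAM17, had 79.7 to 94.9 CPM in young and 60.4 to 71.0 CPM in old mice (log2 fold change -0.37, edgeR adjusted p = 0.161). Neither gene's groups overlapped, as for 8.99% of the 18173 genes with Old below Young. Of the 12 tested genes, 6 had an unadjusted p under 0.05 by edgeR, 4 lower and 2 higher in Old, beside 18.9% of autosomal genes. Tspan17, another tetraspanin of ADAM10, went the other way, with 6.85 to 14.5 CPM in young and 14.2 to 21.1 CPM in old mice (edgeR adjusted p = 0.215).

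Of 19 proteins known to be shed by ADAM10 or ADAM17, 7 had a higher and 12 a lower fitted level in Old, with a median of -0.16. Icam1, an adhesion molecule for leukocytes, had 425 to 540 CPM in young and 217 to 354 CPM in old mice (log2 fold change -0.84, edgeR adjusted p = 0.0801). Il1r2, the decoy receptor of interleukin-1, had 0.11 to 2.64 CPM in young mice and 3.36, 30.4 and 2.40 CPM in old mice (edgeR adjusted p = 0.156), a log2 fold change of 3.61 with 3posI and 1.55 without it.

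Among 6 tested genes of plasminogen activation, a route by which metalloproteinase precursors are activated, S100a10, the partner of annexin A2 at the cell surface, had 3.06 to 10.4 CPM in young mice and 10.9, 92.1 and 8.46 CPM in old mice (edgeR adjusted p = 0.164). Its log2 fold change was 2.56 with 3posI and 0.62 without it. Anxa2 had 68.6 to 213 CPM in young mice and 151, 415 and 102 CPM in old mice (edgeR adjusted p = 0.492), and its log2 fold change of 0.68 turned to -0.13 without 3posI. Both were highest in 3posI, like Mmp14. Plat, the tissue plasminogen activator, had 4.08 to 21.5 CPM in young and 1.66 to 5.92 CPM in old mice (log2 fold change -1.27, edgeR adjusted p = 0.299), and the median of the list was 0.17. Of the 6 binding partners and inducers, Itgb3, an integrin subunit, had 27.1 to 53.0 CPM in young mice and 24.6, 9.08 and 28.9 CPM in old mice (edgeR adjusted p = 0.203), a log2 fold change of -1.02 with 3posI and -0.66 without it. Lrp1, the endocytic receptor that clears metalloproteinases, had 369 to 458 CPM in young and 445 to 709 CPM in old mice (edgeR adjusted p = 0.228), a log2 fold change of 0.44 with 3posI and 0.27 without it. Itgav, another integrin subunit, had 0.51 and 0.27 (edgeR adjusted p = 0.23 with 3posI), and the median of the list was 0.27.

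Of 9 AP-1 and Ets factors, whose sites are known in several metalloproteinase promoters, 7 had a lower fitted level in Old, with a median of -0.46. Fosb had 383 to 611 CPM in young and 112 to 283 CPM in old mice (log2 fold change -1.24, edgeR adjusted p = 0.11). Its groups did not overlap, as for 8.99% of the 18173 genes with Old below Young. Junb had 2192 to 3813 CPM in young and 1176 to 2520 CPM in old mice (edgeR adjusted p = 0.238). Of 14 matrix substrates tested, 10 had a lower fitted level in Old, with a median of -0.98. Nid2, a basement membrane protein that links laminin and collagen, had 13.3 to 17.7 CPM in young and 5.10 to 9.61 CPM in old mice (log2 fold change -1.24, edgeR adjusted p = 0.0591). The groups of Nid2 did not overlap, again as for 8.99% of genes. Dcn, the proteoglycan decorin, had 6.51 to 49.9 CPM in young mice, highest in 23C, and 3.06 to 9.88 CPM in old mice (edgeR adjusted p = 0.227).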

How the data were processed

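Sorted Bodipy+ microglia of 4 Young and 3 Old mice were profiled by low-input RNA sequencing without strand information, with 1 library per mouse. The age group and mouse come from the labels, and the sex, day and gate from the methods of the study. The authors trimmed reads, mapped them with STAR to GRCm38 and made expected counts, effective lengths and TPM values with RSEM on GENCODE m15. The deposited expected counts were not normalized, and the deposited TPM values are scaled within each library. For STAR and RSEM the version is not given here, and FastQC was version 0.11.5 in the submitters' processing notes.

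Expected counts were rounded. A gene was tested if any library exceeded 10 expected counts, with chromosomes X, Y and M removed except in the fit for Timp1. edgeR 4.0.16 in R 4.3.3 gave TMM factors (0.960 to 1.06) and the quasi-likelihood test with age as the only term. CPM levels use the all-chromosome factors. limma 3.58.1 tested log2(TPM + 1) for genes with at least 1 TPM in 1 library. Adjusted p-values are Benjamini-Hochberg values over all genes tested, called under 0.05. DESeq2 1.42.0 and limma-voom were alternatives, as were other scalings, filters, an effective-length offset and leaving out each library. The scripts were tested on simulated data. Loci come from GENCODE vM21, which held 50462 of the 50686 identifiers.

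The members and lists were chosen with earlier results of these data known. Named genes are the members, in each list the genes that passed or else the 3 with the smallest p, the 3 nearest profiles of members with at least 10 CPM, and markers beside a member. FPKM values were not used. A single list gene that this rule names is not reported here. Depth was 36574083 to 53002386 expected counts per library.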

Additional observations from a re-analysis of the deposited data

How the results depend on the processing

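Without the old mouse 3posI, the log2 fold changes turned to -0.12 for Mmp8, -0.36 for Mmp14, -0.75 for Mmp19 and -0.38 for Timp1, and by TPM to -0.067, -0.45, -0.69 and -0.11. Their highest values, all without 4posI, were 2.06, 1.09, 1.57 and 3.16, and by TPM 1.53, 0.61, 0.89 and 2.16. Mmp2 ran from -0.13 without 2posI to 0.45 without 3posI, and from -0.084 to 0.53 by TPM. With limma-voom sample quality weights Mmp14 had -0.055 and Mmp19 -0.14. Without both 23C and 3posI, an alternative chosen after seeing the data, Mmp9 had -0.09, Mmp14 -0.30 and Mmp19 -0.50, and 1 member passed, Mmp12. That pass is no evidence, because 23C was the highest Young and 3posI the lowest Old library of Mmp12. DESeq2 called 1 member, Timp3. The count of members called was 0 when any single library was left out, for CPM and for TPM. The cause of these changes was not tested.

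Autosomal genes called numbered 141 by edgeR, 143 by limma-voom, 318 with quality weights, 1399 by DESeq2, 288 without the filter and 213 with effective lengths as an offset. Leaving out single libraries gave 1 to 159 calls, with 1 each without 14C, 18C or 2posI, 2 without 29C, 14 without 23C, 85 without 4posI and 159 without 3posI. With all chromosomes 137 became 0 to 156. Of the further 125 genes, quality weights called 4 (Adamts10, Fosb, Icam1, Nid2), DESeq2 8, no filter 4 (Adam33, Adamts10 and Nid2 among them), leaving out both 23C and 3posI 1 (Adam33), and leaving out single libraries 0 to 3 (Adamts1, Nid2 and Tnf without 4posI).

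No paired analysis was possible because the labels number mice by animal code and pair none across ages. With 3 old mice and a biological coefficient of variation of 37.2%, members whose old libraries disagree have wide errors: a missed threshold does not show equal levels. Timp1 and Mmp9 rest on few counts in most libraries.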
